A study of Mus musculus with 6 samples.

Results

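The 57 genes described here carry cells through S phase and mitosis, and they were chosen by symbol as 24 genes of DNA replication (Mcm2 to Ung) and 33 genes of G2 and mitosis (Ccna2 to Mki67). All 57 were found among the 23608 rows of the count table, and all 57 passed the filter on low counts, which left 11614 genes for testing. The data were bulk RNA-seq libraries of a mouse acute myeloid leukaemia that AE9a, the shortened splice form of the AML1-ETO fusion, sustains, and the study asked what loss of 1 copy of Usp18, an interferon-inducible protease, does to such cells. Fetal liver cells of Usp18+/f UBCER-Cre mice had been transduced with a retrovirus that carries AE9a and GFP, and the resulting leukaemia was transplanted into irradiated recipients. Once the recipients were ill they received oil, the vehicle (labelled genotype Usp18+/f), or tamoxifen in oil (labelled Usp18+/D), with 3 mice in each group. At 3 days from the first dose, GFP+ splenocytes that carried c-Kit and no lineage marker were sorted. Both groups therefore shared AE9a, the floxed Usp18 copy and the Cre transgene, which the ubiquitin C promoter drives broadly and which the host's own cells lack, and they differed in tamoxifen itself as well as in the recombination it is meant to start. The study's methods describe all of its mice as young adults of both sexes.

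A dividing cell licenses its replication origins in G1 by loading the MCM helicase with the help of CDC6, and fires them in S phase once cyclin E with its kinase and the E2F transcription factors have switched on the replication genes. Cyclin A and cyclin B with CDK1 then take the cell through G2 into mitosis, where the PLK1, Aurora and BUB1 kinases order chromosome attachment and the ubiquitin ligase APC/C, activated by CDC20, starts anaphase. Replication genes are classically bound by E2F, while many genes of G2 and mitosis carry a cell cycle homology region (CHR) with CCAAT boxes and peak later in the cycle. The summed RNA of such genes is widely used as a measure of how many cells in a leukaemia are cycling.

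The promoters of the members were examined first, since the 24 replication and 33 mitosis genes are defined by when they act and not by their sequence. RefSeq promoter windows on GRCm38 (250 bases before to 50 after each transcript start) were found for 50 of the 57, namely 21 replication and 29 mitosis genes, and those of Aurkb, Ccna2, Ccne2, Cdc25c, Gins2, Mcm4 and Tpx2 were not. An E2F site (TTTCCCGC, TTTCGCGC, TTTGCCGC or TTTGGCGC, on either strand) was found for 9 of 21 replication genes (42.9%) and for 1 of 29 mitosis genes (3.45%, Cdk1), against 2.60% of the 27025 genes in the promoter table and 4.82% of the tested genes in it. The CHR element (TTTGAA, either strand) was found for 3 of 21 replication genes (14.3%) and for 20 of 29 mitosis genes (69.0%), against 20.2% of all genes and 14.3% of the tested genes. A CCAAT box (CCAAT, either strand) was found for 13 of 21 (61.9%) and 24 of 29 (82.8%), against 41.1% and 43.4%. A CHR element together with a CCAAT box was found for 2 of 21 replication genes (9.52%) and 18 of 29 mitosis genes (62.1%), against 8.97% and 7.18%. None of these motifs contains another, and a match describes the sequence and not a bound site. The 160 bases before the start are given for the 3 replication genes with an E2F site and the 3 mitosis genes with a CHR element there whose stretch held no annotated exon, to show how the promoters differ, each read 5′ to 3′ on the strand of its gene, with every E2F, CHR and CCAAT match in capitals. These are the mm10 positions Mcm6 chr1:128359706-128359865, minus strand; Mcm5 chr8:75109349-75109508, plus strand; Cdc6 chr11:98907991-98908150, plus strand, which lies within the span of a longer annotated Cdc6 transcript but outside its exons. The mitosis stretches are Mki67 chr7:135716380-135716539, minus strand; Top2a chr11:99024190-99024349, minus strand; Kif11 chr19:37376222-37376381, plus strand.
Mcm6: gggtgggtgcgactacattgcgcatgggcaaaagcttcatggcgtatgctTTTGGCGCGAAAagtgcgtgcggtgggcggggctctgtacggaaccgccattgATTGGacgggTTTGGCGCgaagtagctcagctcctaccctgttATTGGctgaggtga
Mcm5: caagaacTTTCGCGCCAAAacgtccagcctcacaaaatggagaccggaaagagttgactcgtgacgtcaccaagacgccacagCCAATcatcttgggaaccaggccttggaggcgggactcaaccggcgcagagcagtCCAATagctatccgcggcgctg
Cdc6: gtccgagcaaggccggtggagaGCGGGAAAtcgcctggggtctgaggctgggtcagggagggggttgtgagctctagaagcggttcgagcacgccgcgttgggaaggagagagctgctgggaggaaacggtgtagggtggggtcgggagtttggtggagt
Mki67: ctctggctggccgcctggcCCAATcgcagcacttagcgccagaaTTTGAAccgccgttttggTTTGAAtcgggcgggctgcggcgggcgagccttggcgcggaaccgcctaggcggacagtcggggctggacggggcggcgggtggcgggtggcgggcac
Top2a: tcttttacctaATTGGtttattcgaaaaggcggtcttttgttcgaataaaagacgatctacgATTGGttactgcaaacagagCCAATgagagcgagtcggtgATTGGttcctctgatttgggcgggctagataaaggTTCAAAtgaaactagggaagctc
Kif11: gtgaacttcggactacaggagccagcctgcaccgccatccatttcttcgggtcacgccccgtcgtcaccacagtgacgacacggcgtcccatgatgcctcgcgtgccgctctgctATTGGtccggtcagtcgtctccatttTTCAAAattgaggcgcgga
In Mcm6, 3 E2F matches fell in 2 places, since the first pair overlap, and 2 CCAAT boxes stood beside them. In Mcm5 the 2 E2F matches overlap as well, 153 to 142 bases before the start, and Cdc6 held 1 E2F match and no CCAAT box. The mitosis stretches held no E2F match. Mki67 had 2 CHR elements and 1 CCAAT box, Top2a had 1 CHR element close to its start with 4 CCAAT boxes, and Kif11 had 1 of each.

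Depth ranged from 17118964 to 20741399 counts per library, and levels are given as CPM, which sets each gene's counts against those of all tested genes in the library after TMM scaling. Libraries are named by the numbers in the count table (oil 1, 3 and 4, tamoxifen 1, 2 and 4). Tamoxifen 4 stood apart from its group: across all genes its log2 CPM correlated more closely with the oil libraries (mean r = 0.983) than with the other tamoxifen libraries (mean r = 0.972), so the counts of calls are given with and without it, and the plot of fold changes shows both for each of the 57 genes. Since it was singled out by its likeness to oil in these same data, leaving it out favours a difference. The p-values without tamoxifen 4 therefore only describe the remaining libraries. Counts of the targeted gene did not fall in the libraries labelled as depleted. Counts over the whole gene cannot show whether its floxed part was removed. Usp18 stood at 9.12, 11 and 11.2 CPM in oil 1, 3 and 4, against 15.1, 28.0 and 19.4 CPM in tamoxifen 1, 2 and 4, all above oil (log2 fold change 1.0, SE 0.23, edgeR adjusted p = 0.0739; without tamoxifen 4 1.04, SE 0.23, adjusted p = 0.00654, so that it was then called higher). Directions below therefore compare samples by label, not by a measured loss of Usp18. The sort gene Kit was present at 439 to 781 CPM, while the B cell markers summed to at most 0.933 CPM and the neutrophil markers to at most 1.18 CPM in any library. Of 8 leukaemia progenitor markers, Mpo and Cebpa did not pass the filter on low counts.

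The oil and tamoxifen libraries were then compared over the 57 genes. In tamoxifen 1 and 2 nearly all of them stood well below oil, and in tamoxifen 4 they stood at the oil level. Their summed level was 13800, 12400 and 13000 CPM in oil 1, 3 and 4, against 8340, 7550 and 12800 CPM in tamoxifen 1, 2 and 4. The replication genes stood at a median of 55.1% of their oil mean in tamoxifen 1 (range over genes 39.6% to 80.6%), 66.0% in tamoxifen 2 (51.0% to 95.6%) and 100% in tamoxifen 4 (75.2% to 117%). The mitosis genes stood at 71.8% (53.1% to 98.9%), 52.5% (37.0% to 86.3%) and 102% (71.0% to 135%) in the same libraries. Because the libraries are bulk RNA, fewer cycling cells and less of these transcripts per cell cannot be told apart.

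With all 6 libraries, the fitted log2 fold change lay below 0 for 56 of the 57 genes, with a median of -0.44 for replication and -0.39 for mitosis genes against 0 over all genes tested, and Gtse1 was the exception at 0.01. Nevertheless, edgeR called 0 of 57 at an adjusted p under 0.05, where it called 0.267% of all genes lower and 1.75% higher. The smallest adjusted p among the members was 0.0965 (Cdc25b). At an unadjusted p under 0.05, 13 of 57 were lower, against 7.99% of all genes. DESeq2, the tool the study used, called 3 members lower, namely Cdc25b (adjusted p = 0.0143), E2f1 (0.0331) and Ccne2 (0.0441), where it called 1.99% of all genes lower and 6.14% higher. At an unadjusted DESeq2 p under 0.05, 29 members were lower, against 1010 of the 11614 genes tested. All 3 tamoxifen libraries lay below all 3 oil libraries for 11 of 57 genes, against 11.8% of all genes tested.

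Without tamoxifen 4, edgeR called 51 of 57 genes lower and none higher (22 of 24 replication and 29 of 33 mitosis genes), where it called 17.1% of all genes lower and 19.2% higher. The medians were then -0.72 for replication and -0.67 for mitosis genes. The 6 genes not called were Ccne1 (edgeR adjusted p = 0.17), Chaf1b (0.123), Ccnb2 (0.0681), Cdc25c (0.0966), Cenpa (0.189) and Kif23 (0.0789), each with a log2 fold change between -0.44 and -0.19. Leaving out any other library gave 0 member calls by edgeR. At an unadjusted p under 0.05, 3 to 7 members were lower, where 1373 to 1659 of all genes passed in either direction (11747 to 11861 tested). For these fits the genes lower were not counted apart from those higher, so the member counts have no like share beside them. So 1 library decided whether these genes counted as changed, and the comparison without it rests on 2 mice against 3. Tamoxifen 1 and 2 both lay below every oil library for 22 of 24 replication and 31 of 33 mitosis genes, against 30.6% of all genes tested.

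**Figure D1:**
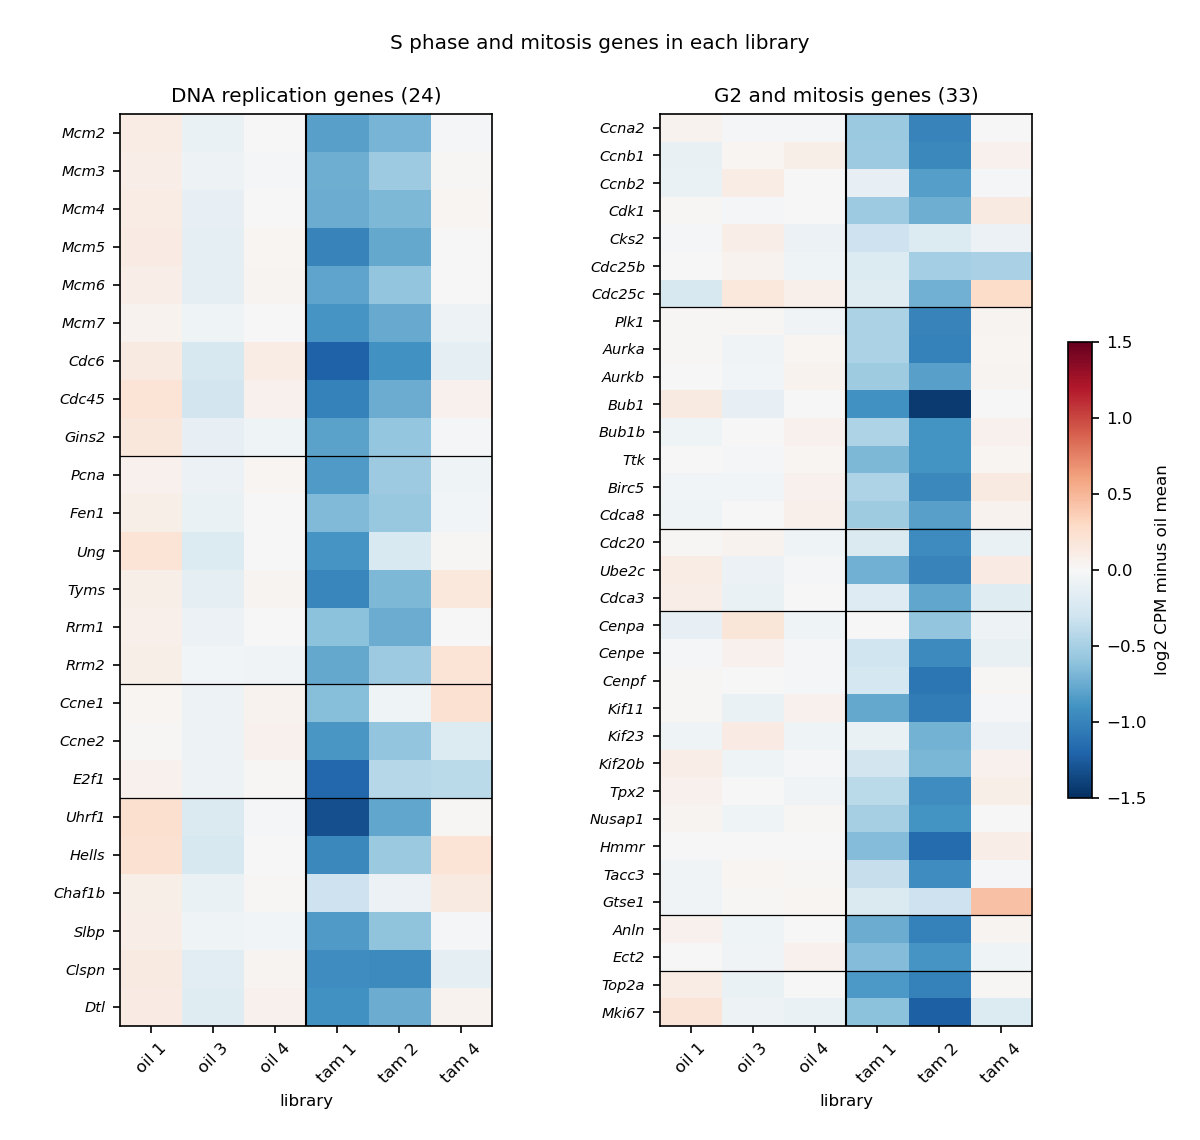
Heat maps of the 24 replication genes (left) and 33 G2 and mitosis genes (right), in which each cell is the log2 CPM of a gene (rows, grouped by role between black lines) in a library (columns, tam for tamoxifen) minus the mean of the 3 oil libraries. Tamoxifen 1 and 2 are blue in nearly every row, with replication genes darker in tamoxifen 1 and mitosis genes darker in tamoxifen 2, while tamoxifen 4 is close to white in most rows and furthest from it in Cdc25b, Gtse1 and E2f1.

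The 9 genes of the replicative helicase and origin licensing differed alike. Mcm2 to Mcm7 encode the ring that unwinds DNA, CDC6 loads it, and CDC45 and GINS2 turn it into an active helicase. All 9 lay below every oil library in tamoxifen 1 and 2, and without tamoxifen 4 all 9 were called lower. Mcm7 (chromosome 5, 138164583 to 138172422, minus strand) stood at 470, 433 and 455 CPM in oil 1, 3 and 4, against 246, 268 and 429 CPM in tamoxifen 1, 2 and 4. Its tamoxifen values thus lay below all oil values, with tamoxifen 4 close to the lowest oil library (log2 fold change -0.53, SE 0.20, edgeR adjusted p = 0.202; without tamoxifen 4 -0.82, SE 0.07, adjusted p = 6.9e-05). Cdc6 (chromosome 11, 98907801 to 98923940, plus strand) stood at 143, 111 and 141 CPM in oil and at 56.2, 69.5 and 118 CPM in tamoxifen. This was the lowest level of the helicase genes relative to oil, 42.8% of the oil mean in tamoxifen 1, and tamoxifen 4 fell within the oil range (log2 fold change -0.69, SE 0.25, edgeR adjusted p = 0.20; without tamoxifen 4 -1.06, adjusted p = 0.000316). Mcm2 was at 557, 480 and 512 CPM in oil and at 292, 317 and 504 CPM in tamoxifen, again with tamoxifen 4 inside the oil range. The other 6 stood between 49.2% and 60.4% of the oil mean in tamoxifen 1, between 58.4% and 68.9% in tamoxifen 2 and between 97.6% and 104% in tamoxifen 4. Gins2 shares 67.3% of its exon bases with exons of Gse1 on the other strand, and since the strand setting of the counts was not given in the sources used here, its counts are uncertain.

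Among the 6 genes of the fork clamp, nuclease, nucleotide supply and repair, all were called lower without tamoxifen 4, by log2 changes of -0.82 to -0.53. Pcna, the sliding clamp that holds polymerases on DNA, stood at 296, 267 and 290 CPM in oil and at 158, 194 and 270 CPM in tamoxifen 1, 2 and 4 (log2 fold change -0.46, SE 0.18, edgeR adjusted p = 0.215; without tamoxifen 4 -0.69, adjusted p = 0.000595). Fen1, the nuclease that trims Okazaki fragments, stood at 192, 167 and 181 CPM in oil and at 113, 121 and 175 CPM in tamoxifen, with 84.2% of its exon bases shared with Tmem258 and Gm10143 on the other strand. For both genes tamoxifen 1 and 2 were clear of the oil range and tamoxifen 4 was inside it. The ribonucleotide reductase subunits, which make deoxynucleotides, differed in which library was lowest. Rrm2 was at 144 CPM in tamoxifen 1 and 169 CPM in tamoxifen 2 against 237 to 263 CPM in oil, whereas Rrm1 was at 321 and 296 CPM against 464 to 521 CPM. Rrm2 in tamoxifen 4 (285 CPM) exceeded every oil library, as did Tyms, the thymidylate synthase, at 134 CPM against 109 to 128 CPM. Ung, which removes uracil from DNA, was at 18.7 CPM in tamoxifen 1 but at 29.3 CPM in tamoxifen 2, just under the lowest oil value of 29.8 CPM. Its call without tamoxifen 4 was marginal (edgeR adjusted p = 0.0495). Pcna and Tyms have annotated pseudogenes that could share reads with them.

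The 3 genes of S phase entry did not move alike. E2f1 (chromosome 2, 154559407 to 154569892, minus strand), a transcription factor of the replication genes, stood at 62.8, 56.8 and 61.0 CPM in oil and at 26.6, 44.6 and 45.3 CPM in tamoxifen 1, 2 and 4. Unlike most members it was also low in tamoxifen 4, at 75.2% of the oil mean, and the groups did not overlap (60.2 ± 3.08 against 38.8 ± 10.6 CPM, SD, n = 3; log2 fold change -0.63, SE 0.19). Its edgeR adjusted p was 0.136 with all libraries and 0.00809 without tamoxifen 4 (log2 fold change -0.76), and DESeq2 called it with all libraries. Ccne2, a cyclin E, stood at 44.7, 41.9 and 46.3 CPM in oil and at 24.3, 29.3 and 38.2 CPM in tamoxifen, also without overlap (log2 fold change -0.53, SE 0.16, edgeR adjusted p = 0.138; without tamoxifen 4 -0.73, adjusted p = 0.00104). Ints8 covers 17.4% of its exon bases on the other strand. The second cyclin E gene, Ccne1, differed from it: it was at 18, 16.7 and 18.3 CPM in oil and at 11.3, 16.9 and 20.7 CPM in tamoxifen, so that only tamoxifen 1 lay below the oil libraries. Its log2 fold change of -0.12 (SE 0.21) turned to 0.09 without tamoxifen 1 and was -0.33 without tamoxifen 4.

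Of the 6 genes of chromatin, histone supply and fork checkpoint, 5 were called lower without tamoxifen 4. Clspn encodes claspin, which links stalled forks to the checkpoint kinase CHK1, and it stood at 123, 100 and 115 CPM in oil and at 58.7, 57.4 and 101 CPM in tamoxifen. It was thus nearly equal in tamoxifen 1 and 2, and tamoxifen 4 sat at the bottom of the oil range (log2 fold change -0.64, SE 0.22, edgeR adjusted p = 0.173; without tamoxifen 4 -0.95, adjusted p = 0.000119). Slbp, which binds the stem loop of replication-dependent histone mRNA, stood at 176, 158 and 160 CPM in oil and at 91.3, 108 and 161 CPM in tamoxifen. Uhrf1, which brings DNA methyltransferase to replicated DNA, reached the lowest level of all replication genes relative to oil: 119 CPM in tamoxifen 1, or 39.6% of the oil mean, against 254 to 351 CPM in oil, with 173 CPM in tamoxifen 2 and 302 CPM in tamoxifen 4. Chaf1b, a subunit of the CAF-1 histone chaperone, lay at the other end, with 107 to 122 CPM in oil and 92.9, 108 and 126 CPM in tamoxifen. In Chaf1b only tamoxifen 1 was below oil, and its log2 fold change of -0.08 turned to 0.02 without that library. The remaining genes, Hells and Dtl, stood at 50.6% and 53.0% of the oil mean in tamoxifen 1 and at 67.0% and 59.5% in tamoxifen 2.

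Turning to G2 and mitosis, the 7 genes of cyclins, CDK1 and its activators ranged widely, and 5 were called lower without tamoxifen 4. Cdc25b (chromosome 2, 131186949 to 131198497, plus strand), a phosphatase that activates CDK1, had the smallest p of all members. It stood at 491, 502 and 466 CPM in oil and at 420, 342 and 345 CPM in tamoxifen, so that here tamoxifen 4 matched tamoxifen 2 and tamoxifen 1 lay nearest to oil. The groups did not overlap (486 ± 18.4 against 369 ± 43.9 CPM, SD, n = 3), and its log2 fold change was -0.40 (SE 0.10, edgeR adjusted p = 0.0965; without tamoxifen 4 -0.35, adjusted p = 0.015). Ccna2, cyclin A, stood at 372, 353 and 353 CPM in oil and at 243, 180 and 356 CPM in tamoxifen. Ccnb1, a cyclin B, stood at 131, 144 and 150 CPM in oil and at 96.7, 72.2 and 148 CPM in tamoxifen. For Cdk1, the kinase they bind, the values were 110, 106 and 108 CPM in oil and 74.0, 64.8 and 118 CPM in tamoxifen. All 3 were lowest in tamoxifen 2, and tamoxifen 4 lay within the oil range for Ccna2 and Ccnb1 and above it for Cdk1. Their log2 fold changes were -0.47, -0.42 and -0.33 over all libraries and -0.76, -0.74 and -0.63 without tamoxifen 4. The second cyclin B gene was less even, with Ccnb2 at 129 CPM in tamoxifen 1, close to the 131 to 151 CPM of oil, and at 78.8 CPM in tamoxifen 2. Ccnb1 and Ccnb2 have annotated pseudogenes. Cks2, a small CDK1-binding protein, differed by little, at 50.6 to 58.9 CPM against 59.0 to 67.3 CPM in oil. Cdc25c, the last of the group, was at 15.3 to 20.3 CPM in oil and at 15.9, 11 and 21.9 CPM in tamoxifen.

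All 8 mitotic kinases and checkpoint genes were called lower without tamoxifen 4, and all 8 were lower in tamoxifen 2 than in tamoxifen 1. Bub1, a kinase of the spindle checkpoint, stood at 93.8, 78.7 and 84.7 CPM in oil and at 45.5, 31.7 and 85.7 CPM in tamoxifen. At 37.0% of the oil mean, its value in tamoxifen 2 was the lowest of any member in any library (log2 fold change -0.66, SE 0.31, edgeR adjusted p = 0.274; without tamoxifen 4 -1.15, SE 0.14, adjusted p = 0.000362). Ttk, the kinase also called MPS1, stood at 48.9, 47.8 and 49.9 CPM in oil and at 30.7, 26.2 and 49.8 CPM in tamoxifen. Plk1 stood at 166, 165 and 158 CPM in oil and at 117, 81.4 and 167 CPM in tamoxifen. In these 3 genes tamoxifen 1 and 2 were far below oil, and tamoxifen 4 lay within the oil range or just above it. Aurka, Aurkb, the BUB1-related kinase Bub1b and the Aurora B partners Birc5 and Cdca8 stood between 69.1% and 72.8% of the oil mean in tamoxifen 1, between 49.6% and 56.9% in tamoxifen 2 and between 102% and 109% in tamoxifen 4.

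The 3 ubiquitin ligase partners of mitosis differed between tamoxifen 1 and 2. Cdc20, the activator of APC/C, stood at 208, 214 and 196 CPM in oil and at 176, 107 and 192 CPM in tamoxifen. All tamoxifen values lay below oil, yet tamoxifen 1 was at 85.5% and tamoxifen 2 at 52.0% of the oil mean (log2 fold change -0.38, SE 0.19, edgeR adjusted p = 0.303; without tamoxifen 4 -0.54, adjusted p = 0.0296). Cdca3, which triggers destruction of the CDK1 inhibitor WEE1, stood at 110, 96.1 and 103 CPM in oil and at 90.0, 59.8 and 90.9 CPM in tamoxifen, without overlap. Ube2c, the E2 enzyme that serves APC/C, was at 154, 127 and 276 CPM in tamoxifen against 238 to 274 CPM in oil, with 22.8% of its exon bases shared with Tnnc2 on the other strand. All 3 were called lower without tamoxifen 4.

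The 11 genes of kinetochore, motors and spindle differed by unequal amounts. Kif11, the motor that separates the spindle poles, stood at 304, 280 and 315 CPM in oil and at 176, 144 and 296 CPM in tamoxifen (log2 fold change -0.54, SE 0.24, edgeR adjusted p = 0.242; without tamoxifen 4 -0.90, SE 0.10, adjusted p = 0.000165). Nusap1, a spindle protein that bundles microtubules, stood at 175, 164 and 173 CPM in oil and at 121, 91.6 and 170 CPM in tamoxifen. Both were below oil in tamoxifen 1 and 2 and within the oil range in tamoxifen 4. By contrast, Cenpa, the histone of centromeres, was at 124 CPM in tamoxifen 1, inside the 114 to 141 CPM of oil, and at 82.7 CPM in tamoxifen 2. Kif23, the motor of the central spindle, was at 109, 71.3 and 109 CPM in tamoxifen 1, 2 and 4 against 112 to 127 CPM in oil. Gtse1, a microtubule-bound protein that also restrains p53, stood furthest above oil of all members in tamoxifen 4. Its values were 101, 106 and 107 CPM in oil and 90.0, 84.3 and 141 CPM in tamoxifen. Its log2 fold change was 0.01 (SE 0.19) over all libraries and -0.26 (SE 0.08, edgeR adjusted p = 0.0216) without tamoxifen 4. The other 6 (Cenpe, Cenpf, Kif20b, Tpx2, Hmmr and Tacc3) stood between 63.8% and 83.6% of the oil mean in tamoxifen 1 and between 45% and 62.0% in tamoxifen 2. Of the 11, 9 were called lower without tamoxifen 4, Cenpa and Kif23 being the others.

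Both cytokinesis genes and both genes of chromosome structure and proliferation were called lower without tamoxifen 4. Ect2, the exchange factor that switches on RhoA at the division plane, stood at 107, 104 and 112 CPM in oil and at 68.5, 58.6 and 104 CPM in tamoxifen. Anln, the anillin scaffold of the contractile ring, stood at 131, 119 and 124 CPM in oil and at 74.7, 61.9 and 128 CPM in tamoxifen. In both, tamoxifen 1 and 2 were well below oil. Top2a (chromosome 11, 98992943 to 99024189, minus strand), the topoisomerase that untangles sister chromatids, stood at 823, 714 and 760 CPM in oil and at 421, 379 and 778 CPM in tamoxifen. It had the smallest p of the members once tamoxifen 4 was left out (log2 fold change -0.94, SE 0.08, edgeR adjusted p = 6.68e-05), against -0.54 (SE 0.25, adjusted p = 0.263) with it. Mki67 (chromosome 7, 135689784 to 135716361, minus strand), which encodes the proliferation marker Ki-67, stood at 1390, 1150 and 1140 CPM in oil and at 804, 523 and 1070 CPM in tamoxifen. The groups did not overlap (1230 ± 142 against 798 ± 273 CPM, SD, n = 3), with tamoxifen 4 nearest to oil (log2 fold change -0.62, SE 0.23, edgeR adjusted p = 0.203; without tamoxifen 4 -0.89, adjusted p = 0.00251).

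**Figure D2:**
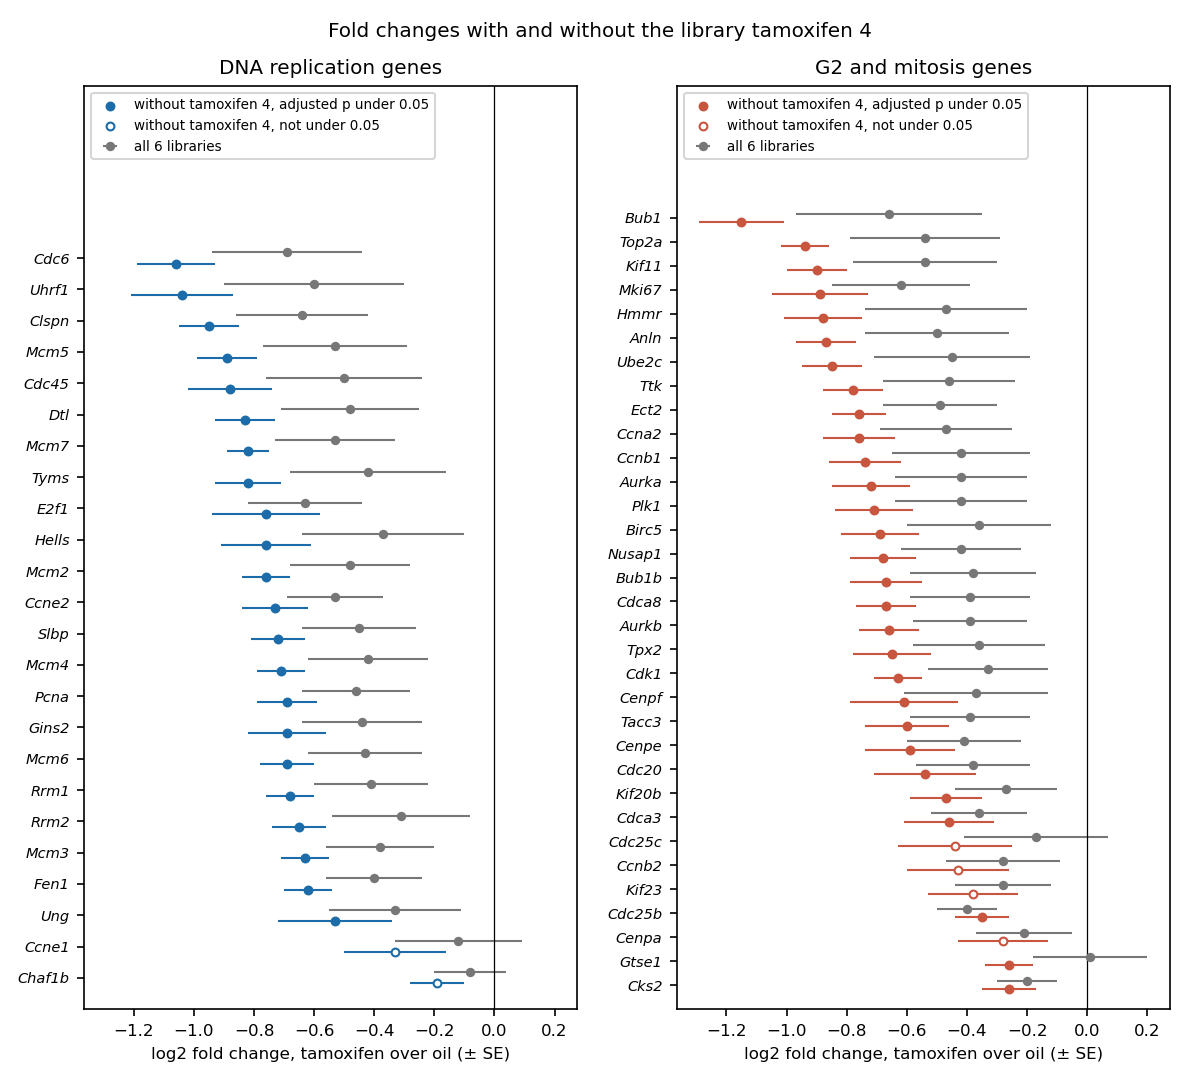
Log2 fold change of tamoxifen over oil (x axis, with SE) for each replication gene (left) and each G2 and mitosis gene (right), in grey from all 6 libraries and in colour without tamoxifen 4, filled where the edgeR adjusted p is under 0.05. Leaving out that library moves nearly every gene further from 0 and shortens its error bar, with 51 of 57 points filled, while Cdc25b moves the other way, from -0.40 to -0.35.

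Tamoxifen 4 was next set against oil gene by gene. Of the replication genes, 17 of 24 lay within the oil range in this library, 3 lay below all oil libraries and 4 above, and of the mitosis genes 14 of 33 lay within it, 8 below and 11 above. Over all genes tested, 30.4% lay below and 31.4% above all oil libraries in tamoxifen 4, so the mitosis counts were near these shares and the replication counts below them. Tamoxifen 1 and 2 were both below tamoxifen 4 for 24 of 24 replication and 31 of 33 mitosis genes. The share over all genes was not taken for this count, so it cannot be read as particular to the members. In tamoxifen 4 the lowest members relative to oil were Cdc25b at 71.0% and E2f1 at 75.2% of the oil mean, and the highest was Gtse1 at 135%.

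Replication and mitosis genes were lowest in different mice. Tamoxifen 2 lay below tamoxifen 1 for 2 of 24 replication genes (Rrm1 and Clspn) but for 32 of 33 mitosis genes (all but Cks2), and over all genes tested it did so for 45.9%. In median log2 difference from the oil mean, replication genes stood at -0.86 in tamoxifen 1 and -0.60 in tamoxifen 2, and mitosis genes at -0.48 and -0.93. The replication median minus the mitosis median was therefore -0.38 in tamoxifen 1 and 0.33 in tamoxifen 2, whereas it was 0.09, -0.09 and 0.02 in oil 1, 3 and 4 and -0.02 in tamoxifen 4. The gap between tamoxifen 1 and 2 was wider than the range of the oil libraries for 12 of 24 replication genes and 31 of 33 mitosis genes, against 40.7% of all genes tested, a share close to that of the replication genes. With 1 library for each of these mice, the order has no replicate check and was not tested. A smaller shift ran through the oil libraries: oil 1 was the highest of them for 22 and oil 3 the lowest for 23 of the 24 replication genes, against 33.6% and 34.5% of all genes tested, while for the 33 mitosis genes the counts were 13 and 14.

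**Figure D3:**
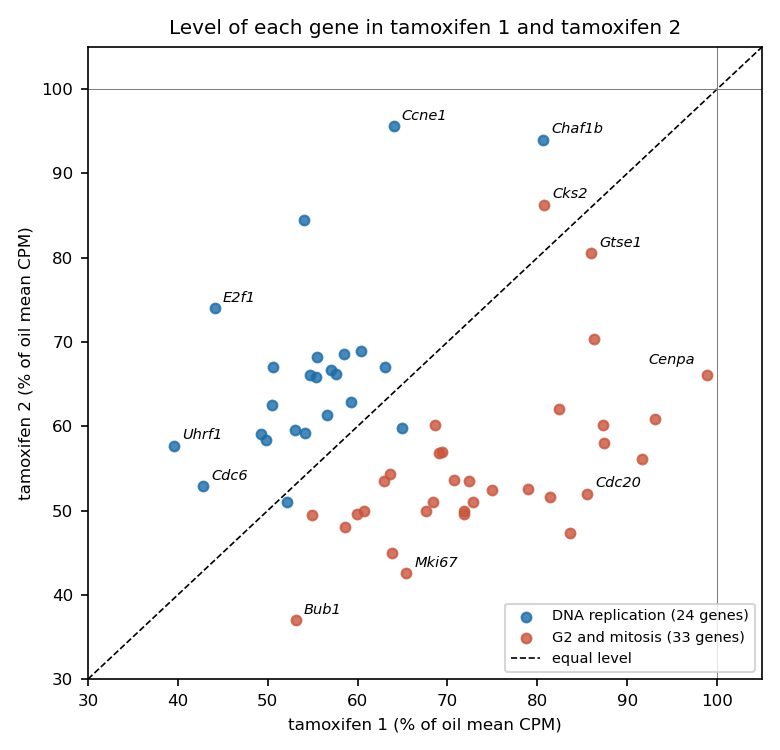
Level of each member in tamoxifen 1 (x axis) and tamoxifen 2 (y axis) as a percentage of its mean CPM in the 3 oil libraries, with replication genes in blue, mitosis genes in red and a dashed line of equal level. All but 2 blue points lie above the line and all but 1 red point below it, and every point lies under 100% on both axes.

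Genes of the same processes outside the 57 gave the same order. A list of 60 other replication genes (origin recognition complex, polymerases, clamp loader and others) stood at a median log2 difference of -0.73, -0.66 and -0.01 from the oil mean in tamoxifen 1, 2 and 4, and a list of 72 other mitosis genes at -0.53, -0.85 and -0.01. Tamoxifen 2 lay below tamoxifen 1 for 12 of the 60 and for 64 of the 72, against 45.9% of all genes tested. The gap between these libraries was wider than the oil range for 20 of the 60 and 48 of the 72, against 40.7% of all genes. The share of the other replication genes (33.3%) was thus below that of all genes. Both lists were read in the same libraries, so they are no replicate check of the order. In the edgeR test of all libraries 0 of either list were called. At an unadjusted p under 0.05, 22 and 23 were lower, against 7.99% of all genes. DESeq2 called 0 of the 60 and 1 of the 72. Without tamoxifen 4, edgeR called 55 of 60 and 66 of 72 lower and none higher. The 3 smallest p-values among the other replication genes belonged to Chaf1a, the largest subunit of CAF-1 (log2 fold change -0.59, SE 0.20, edgeR adjusted p = 0.176), Dck, a deoxynucleoside salvage kinase (-0.75, SE 0.26, adjusted p = 0.181), and Pole, the leading strand polymerase (-0.59, SE 0.22, adjusted p = 0.203). Dck stood at 97.0, 85.7 and 98.7 CPM in oil and at 39.0, 45.1 and 83.8 CPM in tamoxifen. Among the other mitosis genes they belonged to the kinetochore gene Cenpi (-0.75, SE 0.24, edgeR adjusted p = 0.146), Troap (-0.43, SE 0.14, adjusted p = 0.151) and the kinase gene Mastl (-0.59, SE 0.19, adjusted p = 0.16). Cenpi was the gene that DESeq2 called, with 35.4, 34.3 and 40.8 CPM in oil and 17.3, 16.9 and 31.3 CPM in tamoxifen.

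**Figure D4:**
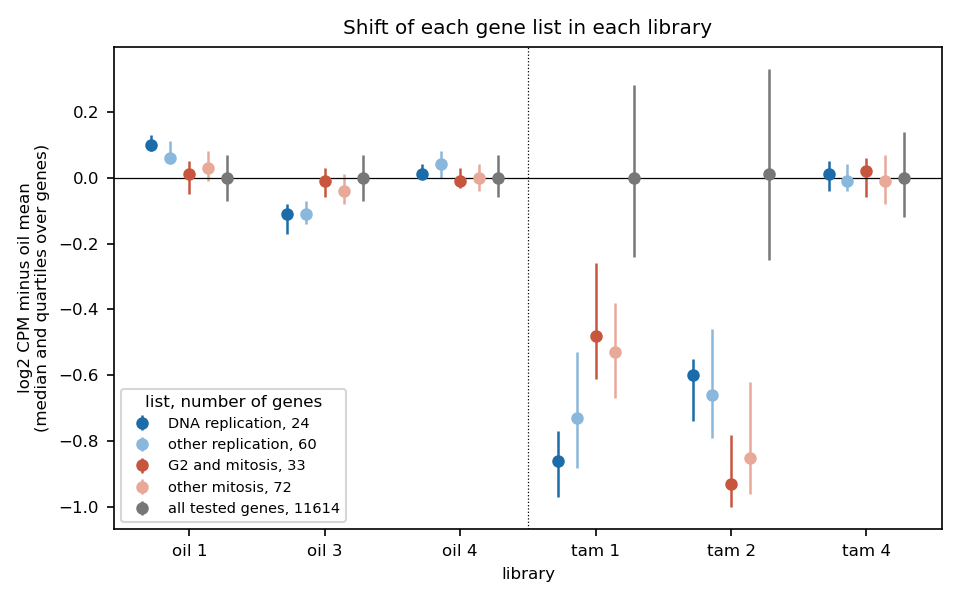
Median over genes (points) and quartiles (bars) of log2 CPM minus the oil mean, for each gene list in each library (x axis, tam for tamoxifen). All tested genes stay at 0 to 0.01, and the 4 cell cycle lists sit between -0.93 and -0.48 in tamoxifen 1 and 2 and between -0.01 and 0.02 in tamoxifen 4, with replication lists lower in tamoxifen 1 and mitosis lists lower in tamoxifen 2.

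A list of 41 regulators of G1 and of cell cycle transcription stood at median log2 differences of -0.28, -0.15 and 0.02 from the oil mean in tamoxifen 1, 2 and 4. Of these, edgeR called 2 higher and 1 lower over all libraries, where it called 1.75% of all genes higher and 0.267% lower. Without tamoxifen 4 it called 6 of the 41 higher and 19 lower, against 19.2% and 17.1% of all genes. The calls higher were thus not above the share of all genes in that fit. Cdkn1a, which encodes the CDK inhibitor p21, stood at 18.2, 22.3 and 15.4 CPM in oil and at 95.7, 118 and 95.4 CPM in tamoxifen 1, 2 and 4 (log2 fold change 2.47, SE 0.16, edgeR adjusted p = 0.00286; without tamoxifen 4 2.52, adjusted p = 8.42e-06). It was thus as high in tamoxifen 4, where the 57 genes stood at their oil level, as in tamoxifen 1, where they were low. The part of Cdkn1a in the levels of the 57 genes was not tested. E2f2, an E2F factor, stood at 117, 106 and 93.5 CPM in oil and at 72.8, 68.8 and 71.5 CPM in tamoxifen, with all 3 tamoxifen libraries alike (log2 fold change -0.57, SE 0.10, edgeR adjusted p = 0.0399; without tamoxifen 4 -0.57, adjusted p = 0.00194). Cdkn2b, the inhibitor p15, was called higher at very low levels, 0.0969 to 0.338 CPM in oil and 0.994 to 1.70 CPM in tamoxifen, where 3 counts make 0.145 to 0.177 CPM.

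Several markers of cell identity moved with the 57 genes. Kit stood at 450, 439 and 451 CPM in oil and at 651, 781 and 447 CPM in tamoxifen 1, 2 and 4, so that it too was at the oil level in tamoxifen 4 (log2 fold change 0.49, SE 0.18, edgeR adjusted p = 0.202; without tamoxifen 4 0.68, adjusted p = 0.000289). The progenitor marker Cd34 stood at 9.68, 8.43 and 11.7 CPM in oil and at 113, 134 and 41.8 CPM in tamoxifen (log2 fold change 3.27, SE 0.41, edgeR adjusted p = 0.0232; without tamoxifen 4 3.64, adjusted p = 2.87e-07). The 12 erythroid markers, all of them detected, summed to 6560 to 8700 CPM in oil and to 9810, 10000 and 5760 CPM in tamoxifen 1, 2 and 4. The 10 macrophage markers summed to 5.57 to 9.74 CPM in oil and to 18.5, 24.6 and 9.83 CPM in tamoxifen, and the largest share of the sum in tamoxifen 1 and 2 was Hmox1, a heme oxygenase gene, at 1.02 to 1.39 CPM in oil and 8.23, 9.56 and 2.76 CPM in tamoxifen. Of the 8 macrophage markers tested, 6 had a log2 fold change above 0 and 2 below, with a median of 0.89. Vcam1 stood at 1.86 (SE 0.42, edgeR adjusted p = 0.0696) and Cd68 at 0.97 (SE 0.34, edgeR adjusted p = 0.189). In both, all tamoxifen libraries lay above all oil libraries. The 2 below 0 were the complement genes C1qb and C1qc, at -0.17 and -0.12. Adgre1 and Marco did not pass the filter on low counts. The 10 T and NK cell markers summed to 1.13 to 2.57 CPM in oil and to 20, 56.4 and 7.62 CPM in tamoxifen, with 8 or 9 of the 10 at 0 in every library and nearly all of the sum from Nkg7. The 7 B cell markers in the table summed to 0.0514 to 0.281 CPM in oil and 0.387 to 0.933 CPM in tamoxifen, and the 8 neutrophil markers to 0.394 to 1.03 and 0.220 to 1.18 CPM. The part of the Kit, Cd34, erythroid and macrophage values in the levels of the 57 genes was not tested.

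Lastly, the levels were related to what the promoters hold. The 9 replication genes with an E2F site stood at a median of 52.1% of the oil mean in tamoxifen 1 and 59.2% in tamoxifen 2, and the 12 with a window but no site at 56.0% and 67.6%. The gene ranges overlapped, 39.6% to 60.4% against 44.1% to 80.6% in tamoxifen 1. The 20 mitosis genes with a CHR element stood at 70.4% and 52.8%, and the 9 without at 79.0% and 52.5%, again with overlapping ranges in both libraries. All 4 medians lay between 99.3% and 102% in tamoxifen 4. Per kilobase of exon, the most abundant members in oil were Mcm3 (186 CPM per kb), Mcm6 (174) and Mcm5 (148), and the least abundant were Cdc25c (3.70), Ung (6.35) and Ccne1 (6.65). Of these low ones, Cdc25c and Ccne1 were among the 6 genes not called without tamoxifen 4, whereas Ung was called. The other genes not called were more abundant: Kif23 at 14.8, Cenpa at 21.3, Chaf1b at 24.6 and Ccnb2 at 91.4 CPM per kb.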

How the data were processed

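The authors sequenced sorted leukaemia cells of 3 mice per group and processed paired-end reads with STAR and DESeq2 on mm10, per the submitters' processing notes. The counting program, strand setting and annotation were not given in the sources used here. The deposited table holds estimated counts per gene symbol, not scaled between libraries, with 25.9% to 27.3% of values per library not whole. They were rounded here. The symbols of 26 rows read as calendar dates and were not named. The columns oil 3 and tamoxifen 2 carry numbers that no sample title has and were used by group only.

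Counts were tested in R 4.3.3 with edgeR 4.0.16 (filterByExpr by group, TMM, quasi-likelihood F test), adjusting p-values by Benjamini-Hochberg over 11614 genes (11851 without tamoxifen 4), with an adjusted p under 0.05 called. DESeq2 1.42.0, other filters, other scaling, a replicate block and each library left out were alternatives. SE is the log2 fold change divided by the root of F. Differences from the oil mean used log2 CPM with a prior count of 2. P-values measure the spread between these mice, and floors of 3 counts cover counting error only. Replicates differed beyond sampling noise, and more so in the tamoxifen group. Chi-square per degree of freedom was 7.32 to 10.1 for pairs of oil libraries and 18.4 for tamoxifen 1 and 2. For tamoxifen 4 it was 57.3 against tamoxifen 1 and 69.1 against tamoxifen 2. Scripts were tested on simulated data with a spread set low and planted changes larger than any fitted for the members over all libraries. That test checked the code and not the power to find changes of the size seen here.

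The 57 genes, the lists and the motifs were chosen with earlier results of these data known. Values in every library are given for the 2 members of each role with the smallest p, for 12 members listed by the rule, and for further members chosen after their values were seen; of the other lists, for called genes and the 3 smallest p-values. Coordinates are from GENCODE M21 and promoter windows from RefSeq, both on GRCm38. The ATAC-seq of these mice and the earlier batch were not analysed here.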

Additional observations from a re-analysis of the deposited data

How the results depend on the processing

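Scaling by DESeq2 size factors within edgeR changed no direction and no call of a member, and the median over all genes stayed within 0.03 of 0 in every alternative. The DESeq2 Wald test called 2 replication and 1 mitosis member lower, 1 other mitosis gene lower, 2 G1 regulators lower (E2f2 and Cdkn2c), 713 of all genes higher and 231 lower, and Usp18 higher (1.0, adjusted p = 0.00199). With no filter on low counts edgeR called 372 higher and 61 lower and Usp18 higher (0.99, adjusted p = 0.0395), and with a filter at a mean of 50 counts 120 and 17, with 1 G1 regulator higher, since Cdkn2b did not pass that filter. These 2 filters called 0 members. At an unadjusted p under 0.05, 30 and 11 members were lower, where 2858 of 15356 and 2066 of 10280 genes passed in either direction. Here too, all genes were not counted by direction, so the shares are not directly comparable.

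Leaving out 1 library gave 0 to 22 replication and 0 to 29 mitosis members lower, 0 to 55 other replication and 0 to 66 other mitosis genes lower, 1 to 6 G1 regulators higher and 0 to 19 lower, 8 to 2278 genes higher and 0 to 2024 lower. In each of these the upper end is the fit without tamoxifen 4. The median log2 fold change ranged from -0.72 to -0.29 for replication and from -0.67 to -0.20 for mitosis members, and that of Usp18 from 0.73 to 1.18. Direction turned for Ccne1 (-0.33 to 0.09), Chaf1b (-0.19 to 0.02), Cdc25c (-0.44 to 0.05) and Gtse1 (-0.26 to 0.15), and for no other member. The cause was not tested.

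Only numbers 1 and 4 occur in both groups. Deviations of same-numbered libraries from their group means correlated at r = -0.13 and 0.06 across genes, against -0.19 to 0.26 for differently numbered ones. With so few pairs, whether same-numbered libraries share more than a number cannot be told. The fit with the replicate block called 1 replication member lower (E2f1, -0.83, adjusted p = 0.0255), 0 mitosis members, 1 G1 regulator higher (Cdkn1a) and 0 lower, the calls of E2f2 and Cdkn2b being lost, and turned Cdc25c to 0.13 and Cenpa to 0.04.

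Depth of at least 17118964 counts leaves counting error small for all members, which stood at 11 CPM or more in every library.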
